A study of Arabidopsis thaliana with 12 samples.

Results

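The kinesin-like gene AT4G14330, the RAB acceptor gene PRA1.B6 (AT5G07110) and the IQ-domain gene iqd32 (AT1G19870) are genes of Arabidopsis thaliana that act around the cytoskeleton, vesicle traffic and calcium signalling. These 3 genes, of 691 with a probe that the platform annotation pairs with 1 gene, were chosen by the size of their difference between the psao mutant and the wild type (WT) on the arrays described here. That difference is therefore given as a description, with no test. Each had 1 probe, and 0 of the 870 probes paired with several genes listed any of them. The description of AT4G14330 as kinesin-like came with the choice of genes, since the annotation tables used here give its locus name only.

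Total RNA of WT plants and of the psao mutant, which lacks the photosystem I protein PSI-O, was measured on 6 arrays of each genotype. Both genotypes were of ecotype Columbia 0. The labels give no tissue, age, growth condition or mutant allele, and they leave unsaid if each array had plants of its own. Any p-value therefore measures only how arrays vary, which may be technical variation. Intensities were deposited relative to the brightest probe of each array, which stood at 100, and exact zeros occurred.

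Kinesins are motor proteins that use ATP to move along microtubules, and in plants they take part in cell division, growth and the transport of cargo. PRA1 proteins are small membrane proteins that bind prenylated RAB GTPases, the switches that direct vesicles between compartments of the secretory pathway. IQD proteins carry IQ motifs that bind calmodulin, the calcium sensor, and many of them associate with microtubules or the plasma membrane. Calmodulin-like (CML) proteins are further calcium sensors of plants.

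Median deposited intensities per array ran from 0.0970 to 0.195 in WT and from 0.198 to 0.273 in psao. Zeros made up 14.5% and 15.1% of the probes on WT arrays 1 and 2, and between 4.22% and 7.33% on the other 10 arrays. Earlier results of these data had shown that arrays of a genotype were alike in couples, namely 1 with 2, 3 with 4 and 5 with 6. The labels do not mention such couples. Whether a zero means no transcript or a spot that was not read cannot be told apart, nor can fewer cells of a type be told apart from less RNA per cell.

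AT4G14330 was close to the floor of the measurement in WT and brighter on most psao arrays. Its deposited intensities on WT arrays 1 to 6 were 0.00704, 0.0171, 0.0167, 0, 0.0231 and 0. On psao arrays 1 to 6 they were 0.160, 0.306, 0.0435, 0, 0.217 and 0.272. The psao arrays above zero all exceeded the brightest WT array, and the zero of psao array 4 made the genotypes overlap.

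Ranked among all probes of the same array, AT4G14330 lay between the percentiles 9.16 and 22.2 on the 4 WT arrays above zero. On the 5 psao arrays above zero it lay between 14.8 and 54.3. Psao array 3, at 14.8, ranked above WT arrays 3 and 5 and below WT arrays 1 and 2. Probes at zero count as lower in these ranks. They made up 14.5% and 15.1% of WT arrays 1 and 2, against 6.02% of psao array 3, so these ranks are not directly comparable. After log2 transformation and quantile normalization, with zeros missing, its mean level over the WT arrays was -5.46 ± 0.59 (SD, n = 4), and over the psao arrays -2.94 ± 1.02 (SD, n = 5). The difference was 2.52 log2 units, or 5.75-fold. The lowest psao array above zero, array 3 at -4.60, lay just above the highest WT array, array 2 at -4.61. By couple the difference between genotypes was 2.50 in arrays 1 and 2, and 1.30 in arrays 3 and 4, where array 3 alone had a value in both genotypes. In arrays 5 and 6 it was 3.20, where WT array 6 was missing, and array 5 alone gave 2.99.

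The size of this difference moved with the treatment of zeros and with the scaling. With an offset of 0.05 added before the log, which kept all 12 arrays, it was 1.06. With values as deposited, not scaled between arrays and with zeros missing, it was 3.50. Arrays of a couple differed in AT4G14330 by a median of 1.05 log2 units over its 3 couples with values, against 0.24 over all tested probes, and by at most 1.19.

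PRA1.B6 had the clearest separation. Its deposited intensities were 0, 0, 0.0900, 0.0788, 0.0426 and 0.0799 on WT arrays 1 to 6. On psao arrays 1 to 6 they were 0.721, 0.756, 0.250, 0.303, 0.423 and 0.387. Every psao array lay above every WT array, with the dimmest psao array at 0.250 and the brightest WT array at 0.0900. PRA1.B6 was the only one of the members separated in this way on deposited values with zeros kept. Of all 3439 probes, 15.2% were separated with psao higher and 4.13% with psao lower, so that such separation was common on these arrays.

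PRA1.B6 ranked between the percentiles 15.03 and 31.0 on the 4 WT arrays above zero and between 58.0 and 80.3 on the psao arrays. The ranks do not depend on the scaling between arrays. Its normalized log2 level averaged -3.72 ± 0.55 (SD, n = 4) on WT arrays, and -1.32 ± 0.57 (SD, n = 6) on psao arrays, a difference of 2.40, or 5.28-fold. Couples gave 1.54 in arrays 3 and 4 and 2.56 in arrays 5 and 6. Arrays 1 and 2 gave no log2 difference because WT was listed at 0 there, and psao arrays 1 and 2 were the brightest of all 12.

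Zeros on exactly WT arrays 1 and 2 occurred in 117 of the 3439 probes (3.40%). Within couples PRA1.B6 differed by a median of 0.18 log2 units and by at most 0.93, between WT arrays 5 and 6. Its SD within a genotype, 0.56, was close to the median of all tested probes, 0.56. Its difference kept a narrow range under the other settings, from 1.99 with arrays 3 to 6 alone to 2.63 as deposited.

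The gene iqd32 was lower in psao on arrays 3 to 6 and higher on array 1, while WT array 2 was at 0. On WT arrays 1 to 6 its deposited intensities were 0.0207, 0, 0.231, 0.223, 0.214 and 0.240. On psao arrays 1 to 6 they were 0.114, 0.0181, 0.0483, 0.0688, 0.0950 and 0.0590. WT arrays 3 to 6 formed a tight set above every psao array, while WT arrays 1 and 2 both lay below their psao counterparts.

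By rank, iqd32 stood between the percentiles 53.5 and 57.6 on WT arrays 3 to 6 and at 22.9 on WT array 1. On psao arrays it stood between 8.96 and 24.0. WT array 1 and psao array 1, at 24.0, had close ranks, but these count probes at zero as lower. Zeros made up 14.5% of WT array 1 and 6.72% of psao array 1, so the 2 ranks are not directly comparable. Its normalized log2 level averaged -2.56 ± 1.08 (SD, n = 5) on WT arrays, and -4.54 ± 1.06 (SD, n = 6) on psao arrays, a difference of -1.98, or 3.96-fold lower.

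The spread of iqd32 within a genotype, 1.07 log2 units, exceeded that of 86.4% of the tested probes, and psao arrays 1 and 2, of 1 couple, differed by 2.84. Couple differences were -0.67 in arrays 1 and 2, where WT array 2 was missing, -2.09 in arrays 3 and 4 and -2.22 in arrays 5 and 6. Between the same-numbered arrays 1 the difference was 0.75, opposite to the others, and without WT replicate 1 the overall difference was -2.43. With the offset it was -0.96, and with values as deposited -1.27. With the array number as a block it was -1.58.

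**Figure D1:**
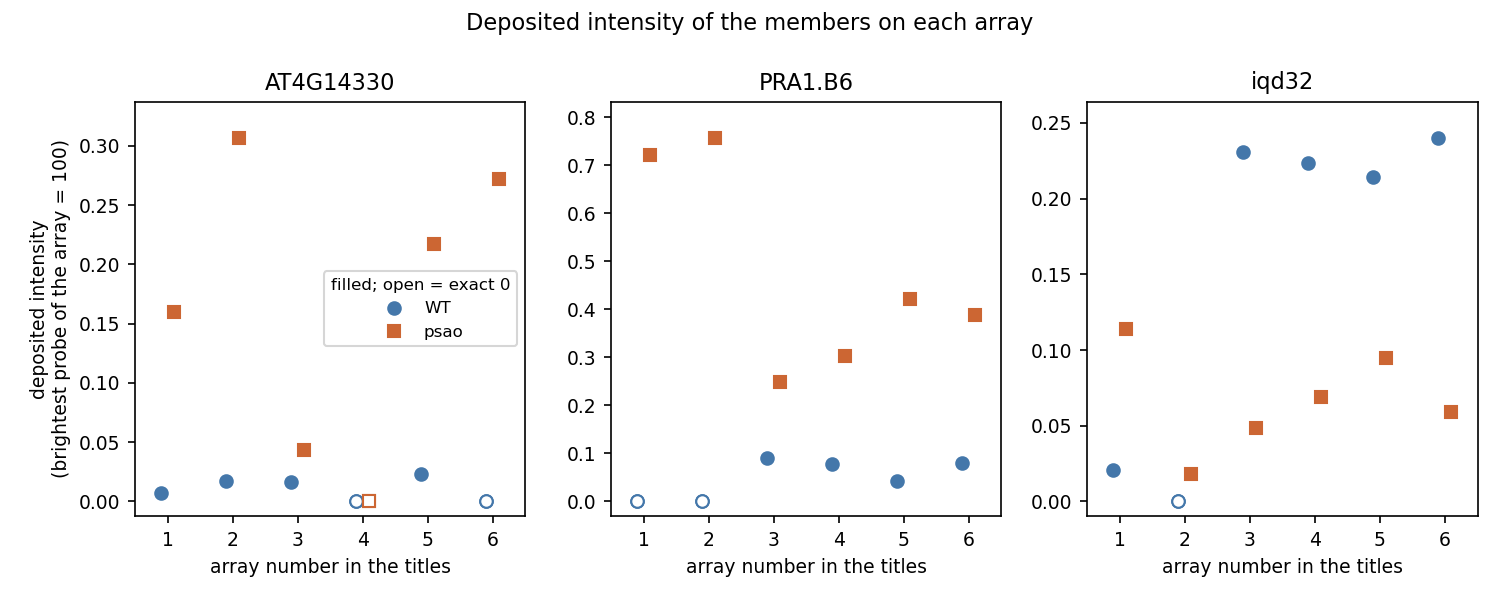
Deposited intensity (brightest probe of each array at 100) of AT4G14330, PRA1.B6 and iqd32 against the array number of the titles, with WT as circles, psao as squares and exact zeros as open symbols. PRA1.B6 is separated on all 12 arrays, and AT4G14330 is at 0 on psao array 4. The gene iqd32 is lower in psao on arrays 3 to 6 and higher on array 1, while WT array 2 is at 0.

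The members differed in brightness, in their zeros and in direction. Mean deposited intensities over all 12 arrays were 0.0886 for AT4G14330, 0.111 for iqd32 and 0.261 for PRA1.B6, against a median of 0.212 over all probes. In WT the order of the normalized levels was iqd32, PRA1.B6 and AT4G14330 from high to low, and in psao it was PRA1.B6, AT4G14330 and iqd32. Because every level belongs to another probe, this order says nothing of transcript numbers. AT4G14330 was at 0 on WT arrays 4 and 6 and psao array 4, PRA1.B6 on WT arrays 1 and 2, and iqd32 on WT array 2, where 2 members were thus at 0.

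Among all probes, the number called depended on whether arrays were taken as separate. Of 3187 probes tested with limma, 963 passed an adjusted p of 0.05 (30.2%), 484 higher in psao (15.2%) and 479 lower (15%). With couples averaged 59 passed, 47 higher and 12 lower, and with values as deposited 763 were higher and 223 lower. On normalized values above zero, every psao array lay above every WT array in 10.2% of these probes and below in 9.54%. Of the members, AT4G14330 and PRA1.B6 were separated in this second way and iqd32 was not. Since the members were chosen on this contrast, nothing is read from those counts.

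The other genes of these families were taken from the annotation by words such as kinesin, tubulin, actin, RAB, vesicle, calmodulin and IQ-domain, and from 36 loci. The words were sought in gene names and synonyms, so a gene listed by locus name alone could be missed, as AT4G14330 itself would be. Only 4 further genes with a probe for 1 gene were found in this way, and no tubulin or actin was among them. They were PRA1.B3, IQD22, CML41 and CML30. Of the 4, 1 rose (CML41), 0 fell and 3 did not pass the limma test, against 30.2% of all probes called. The median difference was -0.19 log2 units, against -0.04 over all tested probes.

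PRA1.B3, a RAB acceptor of the same subfamily as PRA1.B6, did not pass the test, and its genotype means lay close together. Its deposited intensities ran from 0 to 0.103 in WT, with zeros on arrays 1 and 2, and from 0.0848 to 0.165 in psao. The zeros thus fell on the same arrays as those of PRA1.B6. After normalization it averaged -3.47 ± 0.37 (SD, n = 4) on WT arrays, and -3.50 ± 0.42 (SD, n = 6) on psao arrays, a difference of -0.03 ± 0.27 (SE, limma adjusted p = 0.940). Within its arrays PRA1.B3 ranked at a median percentile of 28.9 on the WT arrays above zero and of 30.3 on psao arrays. The sign of its difference depended on the setting, and it was 0.40 with values as deposited.

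IQD22, of the same calmodulin-binding family as iqd32, was dim throughout. Its deposited intensities ran from 0.0152 to 0.0577 in WT and from 0.00746 to 0.0893 in psao, and the genotypes overlapped. The normalized log2 level averaged -4.19 ± 0.52 (SD, n = 6) on WT arrays, and -5.02 ± 1.36 (SD, n = 6) on psao arrays, a difference of -0.84 ± 0.54 (SE) that did not pass (limma adjusted p = 0.263). By couple the difference was -2.42, 0.51 and -0.60 in the order of the arrays. The couple with the largest difference in IQD22, arrays 1 and 2, was the one with the smallest in iqd32. With arrays 3 to 6 alone the difference of IQD22 was -0.04, and without psao replicate 1 it was -0.38.

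CML41, a calmodulin-like protein, was higher in psao on every array. Deposited intensities on WT arrays 1 to 6 were 0.0346, 0, 0.0785, 0.0531, 0.114 and 0.127. On psao arrays they ran from 0.207 to 0.321, so that the dimmest psao array lay above the brightest WT array. The normalized log2 level of CML41 rose by 1.34 ± 0.26 (SE, limma adjusted p = 0.00324). It was -3.51 ± 0.49 (SD, n = 5) over the WT arrays above zero and -2.17 ± 0.34 (SD, n = 6) over the psao arrays. The couples gave 1.68, 1.96 and 0.57. With couples averaged, 3 values against 3, CML41 did not pass (limma adjusted p = 0.0999, where the alternatives that could test it gave 0.00206 to 0.0999).

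CML30, a second calmodulin-like protein, was the brightest of the genes described here, and its direction differed between couples. Deposited intensities were 0.241 and 0.430 on WT arrays 1 and 2 and between 1.72 and 1.93 on WT arrays 3 to 6. On psao arrays 1 and 2 they were 0.645 and 0.811, and on psao arrays 3 to 6 they lay between 1.05 and 1.16. WT arrays 1 and 2 were therefore below their psao counterparts and the other WT arrays above them. The fitted difference was -0.34 ± 0.45 log2 units (SE, limma adjusted p = 0.587), with 0.57, -0.77 and -0.82 in the couples. Restricted to arrays 3 to 6 the difference was -0.80, and CML30 passed (limma adjusted p = 0.00148, where the alternatives together gave 0.00148 to 0.913). That fit counted the arrays of a couple as separate, and within couples CML30 differed by a median of 0.10 log2 units. With couples averaged, over all arrays, CML30 did not pass (limma adjusted p = 0.757). Without WT replicate 1 the difference of -0.69 missed the threshold (limma adjusted p = 0.149). Like iqd32, CML30 was low on WT arrays 1 and 2, the arrays with the most zeros, whose part in these values was not tested.

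**Figure D2:**
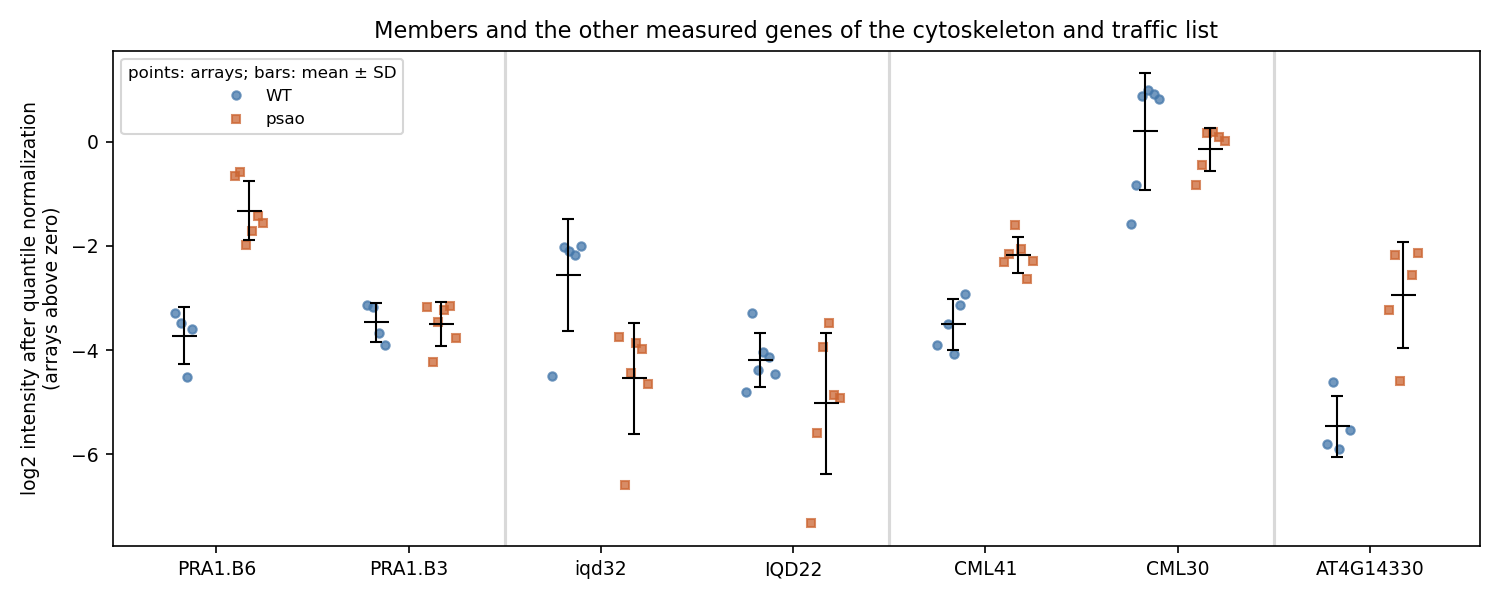
Log2 intensity after quantile normalization of the members and of the other genes of the list, with 1 point per array above zero and bars giving the mean ± SD of each genotype (WT circles, psao squares). PRA1.B6 and CML41 show a gap between genotypes, AT4G14330 a narrow one, the 2 means of PRA1.B3 lie close together, iqd32 has a low WT point from array 1, and CML30 has low WT points from arrays 1 and 2.

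The genes whose pattern over the arrays was most like that of each member were found among the named genes by the mean absolute difference of log2 values, each taken less the gene's own mean. For PRA1.B6 they were AT3G23940, AT2G30100 and AT1G72020, at 0.33, 0.34 and 0.37 log2 units over 10 arrays, against a median of 1.20 over 623 genes. For AT4G14330 they were AT5G40140, AT5G46560 and AT4G32060, at 0.53, 0.55 and 0.62 over 8 or 9 arrays, against a median of 1.44. For iqd32 they were AT4G37420, AT2G36480 and CBL (AT3G57050), a cystathionine beta-lyase of methionine synthesis, at 0.43, 0.53 and 0.55 over 10 or 11 arrays, against a median of 1.24.

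This first measure includes the difference between genotypes. The genes most like PRA1.B6 and AT4G14330 had differences between 1.68 and 2.78 log2 units, and those most like iqd32 between -1.88 and -1.36. Taken less each genotype's own mean, the nearest gene was AT2G35450 for PRA1.B6 at 0.18, NdhN, a subunit of the chloroplast NDH complex, for AT4G14330 at 0.31, and AT1G72890 for iqd32 at 0.36. Their own differences between genotypes were 0.34, -1.34 and -0.09. None of these 3 genes had a difference near that of the member it followed within the genotypes.

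The members were also compared with one another. Taken less each genotype's mean, AT4G14330 and PRA1.B6 differed by 0.73 log2 units over 7 arrays, iqd32 and PRA1.B6 by 0.75 over 10, and iqd32 and AT4G14330 by 1.22 over 8. Over all compared genes the same measure had a median of 0.59 for PRA1.B6, 0.76 for AT4G14330 and 0.77 for iqd32.

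**Figure D3:**
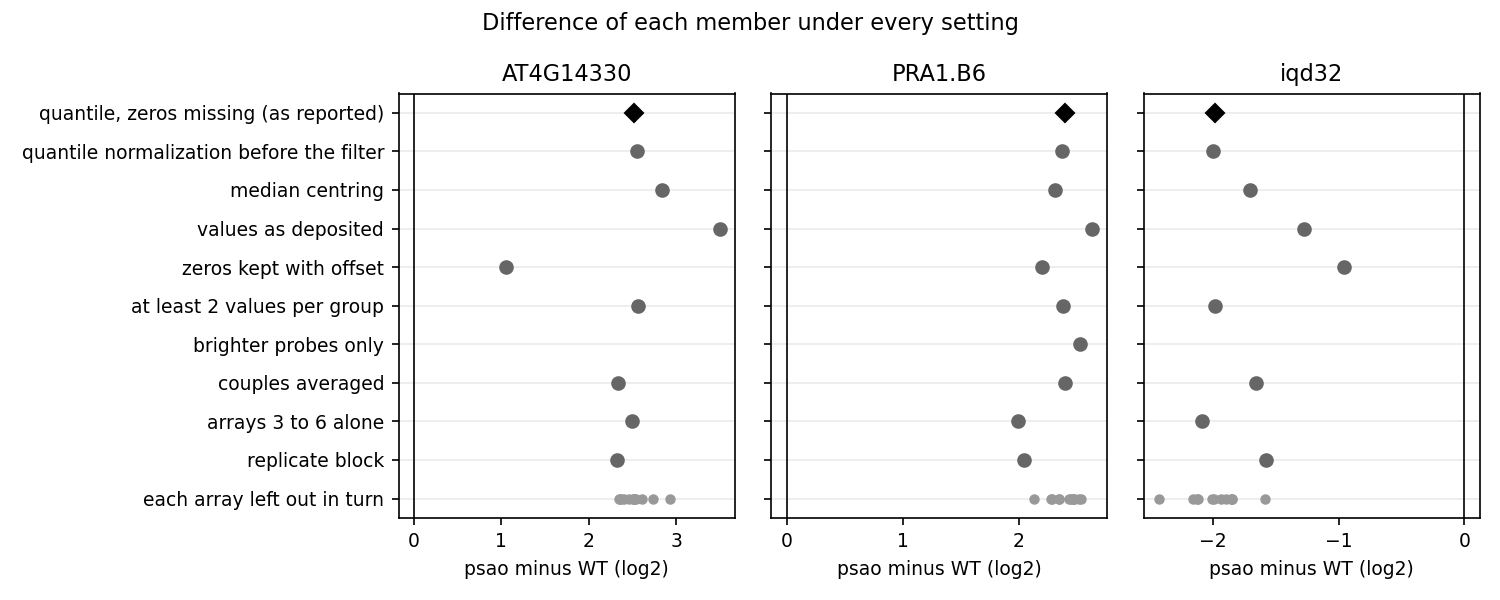
Difference between psao and WT in log2 units for each member under every setting, with the reported value as a diamond and 1 point for each of the 12 arrays left out in the lowest line. PRA1.B6 stays between 1.99 and 2.63, AT4G14330 spans 1.06 to 3.50 and iqd32 spans -2.43 to -0.96, with no change of sign.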

How the data were processed

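The deposited values of 3439 probes were linear intensities scaled to each array's brightest probe. How the authors made them is not given in the sources used here. GEO's platform annotation paired 692 probes with 1 gene and 870 with several, and 1877 were unnamed. RefSeq names of TAIR10.1 matched 690 of the 692. No genome build was named, so no positions are printed.

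Zeros were set missing, intensities log2 transformed, probes with at least 4 values in each genotype kept (3187) and arrays quantile normalized. The genotypes were compared in limma 3.58.1 (lmFit, eBayes; R 4.3.3), two-sided, with Benjamini-Hochberg adjustment over all probes and a threshold of 0.05. The fit was tested on simulated data in which arrays varied independently and zeros fell at random. Those data held no couples and no arrays rich in zeros, so they cannot show how the fit behaves with either. The number of arrays limits the precision.

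Same-numbered WT and psao arrays deviated together across probes (r from 0.145 to 0.259). The reported fit did not use the number, which entered only as a block in an alternative. No correlation was calculated between arrays of different numbers, so these values cannot tell pairing by number from pairing by couple. Alternatives covered scaling, zeros, filters, couples averaged, arrays 3 to 6 alone, the number as a block and each array left out. The members and gene lists were chosen with earlier results of these data known. Named were the members, every list gene tested, and for each member the 3 genes of most like pattern and the nearest within genotypes, over at least 8 arrays.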

Additional observations from a re-analysis of the deposited data

Results flagged for a closer look

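In iqd32, WT replicate 1 stood at -4.49 log2 units after normalization, far below the nearest other of the 5 WT arrays with a value, at -2.18. In the same gene psao replicate 2 lay at -6.59, and the next psao array lay at -4.65. The flagged arrays are of different genotypes, each in its own genotype's couple of arrays 1 and 2. In the same couple as psao replicate 2, psao array 1 stood at -3.75. WT array 2, missing from the first set, was deposited at 0. In all, 14 sets of values (7 genes in both genotypes) were searched for a far sample and 2 had one, both in iqd32. Chance gives about 1 in 20 for independent values, a rate that need not hold for arrays alike in couples.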

How the results depend on the processing

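The members kept their direction under every alternative that gave a value. Leaving out each array in turn gave 2.35 to 2.93 for AT4G14330, 2.13 to 2.53 for PRA1.B6 and -2.43 to -1.59 for iqd32. AT4G14330 moved by more than the spread between arrays in both of 2 settings: 3.50 as deposited, which leaves zeros missing, and 1.06 with the offset. AT4G14330 and iqd32 were too dim for the filter on brighter probes and got no value there. Over all probes 963 calls became 59 with couples averaged (47 higher, 12 lower), and 803 to 956 with an array left out. As deposited, 763 of 986 calls (77.4%) were higher in psao against 50.3% after normalization, and the median of all probes shifted by 0.43. Scaling before the filter, added after seeing the data, gave 949. Of the list, 0 of 4 genes passed with couples averaged, 0 of the 1 left among brighter probes, and 2 of 4 with arrays 3 to 6 alone. Over all probes the same settings called 59 of 3187, 822 of 1715 and 1220 of 3266. Each array left out gave 1 gene of the list. PRA1.B3 changed sign as deposited (0.40), with median centring (0.081), with the offset (0.40), with the replicate block (0.067), with arrays 3 to 6 alone (0.056) and, between -0.18 and 0.11, with single arrays left out, and never passed. The replicate block changed no call of the list and gave 1119 calls over all probes, with member differences of 2.32, 2.05 and -1.58 for AT4G14330, PRA1.B6 and iqd32.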

Other observations

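The layout of the array is not given in the sources used here. Tested probes numbered within 5 of a member's own had a median difference between psao and WT opposite in sign to the member. It was -0.84 log2 units over 8 probes for AT4G14330, -0.23 over 6 for PRA1.B6 and 0.32 over 5 for iqd32. Single probes varied, with 2 of the 8 near AT4G14330 higher in psao, up to 1.29. Near PRA1.B6, 2 of the 6 were higher, up to 2.41, against 2.40 for PRA1.B6 itself. The probe of PRA1.B3, at -0.03 and described above, was among these 6. Near iqd32 all 5 were higher.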
